A study of Mus musculus with 8 samples.

Results

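The genes described here encode the hydrolases of the lysosome, the proton pump that acidifies it (the vacuolar ATPase, V-ATPase) and proteins of its membrane. A list of 45 gene symbols was drawn up by function, with earlier results of these data known, so that its counts are a description and not independent evidence. Members were the genes of that list for which the array annotation gives a probe set with a single gene symbol, and 43 of the 45 had one, out of 18194 such genes on the array. Atp6v0c and Cd63 were not analysed here. The 43 members comprise 12 V-ATPase genes, 11 cathepsins and other peptidases, 10 glycosidases and sulfatases, 5 genes of lipid handling and protein deacylation, and 5 membrane proteins. They were measured in total RNA from the epididymal fat pad, a visceral depot attached to the epididymis, of 8 male C57BL/6J mice, with 1 array per mouse and 2 mice in each of 4 groups.

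The labels name no transgene or deletion in any group. The mice were bought at 6 weeks of age and ate their diet for 24 weeks and then for a further 5 weeks. The chow group ate a diet with 10% of its calories from fat. The other 3 groups ate a high-fat diet (HFD) with 30% of calories from fat, and in the last 5 weeks 1 of these groups received no drug, another telmisartan and another candesartan, each at about 3 mg/kg/day in the drinking water. Both drugs block the angiotensin II type 1 receptor, through which that hormone constricts vessels. The whole fat pad was used, so that the RNA of adipocytes, macrophages, vessels and other cells was measured together, and more cells of a type cannot be told apart from more RNA per cell. The adipocyte markers Adipoq, Cidec, Fabp4 and others were present on all arrays, with a summed signal of 67181 to 80291, while of 5 epididymis and testis markers on the array 0 passed the filter on dim genes.

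Lysosomes are acidic organelles in which proteins, glycans and lipids taken up or recycled by a cell are broken down. The V-ATPase pumps protons into the lumen: its V1 sector, in the cytosol, splits ATP, and its V0 sector, in the membrane, conducts the protons. Most of the hydrolases work only at that low pH, and the transcription factor TFEB and its relatives are known to bind an E-box in the promoters of many lysosomal genes. In obese fat, macrophages gather around dying adipocytes and digest their lipid in lysosomes.

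Values are signals of the array scanner software, scaled here to the same trimmed mean on every array and compared on the log2 scale. Before scaling, the trimmed mean of the arrays ranged from 178 to 265. All 43 members were bright enough to be among the 11232 genes tested, and 0 had an array at the lower floor set on the signals. The 2 arrays of a group differed most in the telmisartan group, where the SD over members of the log2 difference between them was 0.30, against 0.23 in chow, 0.15 in HFD and 0.14 with candesartan. In the telmisartan group 32 of 43 members were lower on array 1 than on array 2, and in the candesartan group 36 of 43, with median differences of −0.18 and −0.10. The labels name separate mice. The p-values rest on the spread between the 2 mice of a group, pooled over the 4 groups. limma draws this spread toward that of genes of similar brightness. Having 2 mice per group limits the precision.

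The promoters of the members were read from RefSeq (assembly GRCm38.p6) as windows of 300 bases, from 250 before to 50 after a transcription start. Windows were found for 35 of the 43 members. The E-box core CACGTG, which reads the same on both strands, lay in a window of 13 of the 35 (37.1%), against 8.09% of the 27025 genes in the table. With a T in front on either strand (TCACGTG, a subset of the matches to the core), the share was 34.3% of members and 4.29% of all genes. The longer palindrome GTCACGTGAC, which contains both shorter motifs, was in the windows of 0 members and 0.37% of all genes. The core was in 5 of 17 members that rose with HFD and in 8 of 18 that were not called. These matches are a description of letters in a window, not of binding. Atp6v1a, Gla, Lamp1 and Ctsk are shown as examples, printed from 5′ to 3′ on the strand of the gene, because they differ both in the motif and in their response to the diet: Atp6v1a and Gla hold the core and rose, Lamp1 holds it and did not pass the test, and Ctsk lacks it and rose. Capitals mark each CACGTG, which begins 131 bases before the start in Atp6v1a and 227 and 194 bases before it in Gla. Lamp1 has 4 of them, the first 61 bases before the start.
Atp6v1a, chr16:44139210-44139509, minus strand: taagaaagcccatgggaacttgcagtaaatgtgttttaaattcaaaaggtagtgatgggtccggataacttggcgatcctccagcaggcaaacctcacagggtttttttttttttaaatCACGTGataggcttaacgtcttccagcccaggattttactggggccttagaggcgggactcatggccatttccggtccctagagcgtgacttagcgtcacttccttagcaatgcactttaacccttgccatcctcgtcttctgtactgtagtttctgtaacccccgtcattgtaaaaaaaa
Gla, chrX:134600956-134601255, minus strand: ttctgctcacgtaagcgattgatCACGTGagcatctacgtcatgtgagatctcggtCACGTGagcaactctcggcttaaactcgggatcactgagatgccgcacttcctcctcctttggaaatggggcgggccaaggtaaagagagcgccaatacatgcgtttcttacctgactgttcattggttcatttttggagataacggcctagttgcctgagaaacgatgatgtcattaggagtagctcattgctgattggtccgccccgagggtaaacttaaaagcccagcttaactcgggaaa
Lamp1, chr8:13158911-13159210, plus strand: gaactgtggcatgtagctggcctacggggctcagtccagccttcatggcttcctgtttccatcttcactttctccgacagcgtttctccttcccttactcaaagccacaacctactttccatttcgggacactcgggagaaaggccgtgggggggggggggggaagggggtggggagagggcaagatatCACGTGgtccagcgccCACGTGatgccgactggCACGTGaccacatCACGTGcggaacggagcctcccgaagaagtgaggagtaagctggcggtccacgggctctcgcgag
Ctsk, chr3:95498960-95499259, plus strand: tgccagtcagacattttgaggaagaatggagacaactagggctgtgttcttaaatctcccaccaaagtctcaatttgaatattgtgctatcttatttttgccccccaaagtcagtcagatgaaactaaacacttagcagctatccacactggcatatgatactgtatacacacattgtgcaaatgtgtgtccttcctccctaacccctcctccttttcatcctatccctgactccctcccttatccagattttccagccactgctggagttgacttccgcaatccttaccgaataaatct

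HFD was compared with chow to see how the diet moved the lysosomal genes. With HFD, 23 of the 43 members rose (53.5%) and 0 fell, by limma's test with p-values adjusted over all genes (Benjamini-Hochberg, threshold 0.05). Of all genes, 5.15% rose and 2.95% fell by the same rule. At an unadjusted p under 0.05 there were 30 members, 69.8% of them, against 24.1% of all genes. The median change of the members was 0.50 on the log2 scale, against −0.01 over all genes. For 35 of 43 members both HFD arrays lay above both chow arrays, as they did for 27.8% of all genes, and 9 of the members that rose did so by at least 2-fold. The changes ran from −0.23 for Atp6v1d to 5.44 for Atp6v0d2, and without Atp6v0d2 the median was 0.48. Rises were found in every functional class: 5 of 12 V-ATPase genes, 7 of 11 peptidases, 5 of 10 glycosidases and sulfatases, 4 of 5 genes of lipid handling and deacylation, and 2 of 5 membrane proteins.

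**Figure D1:**
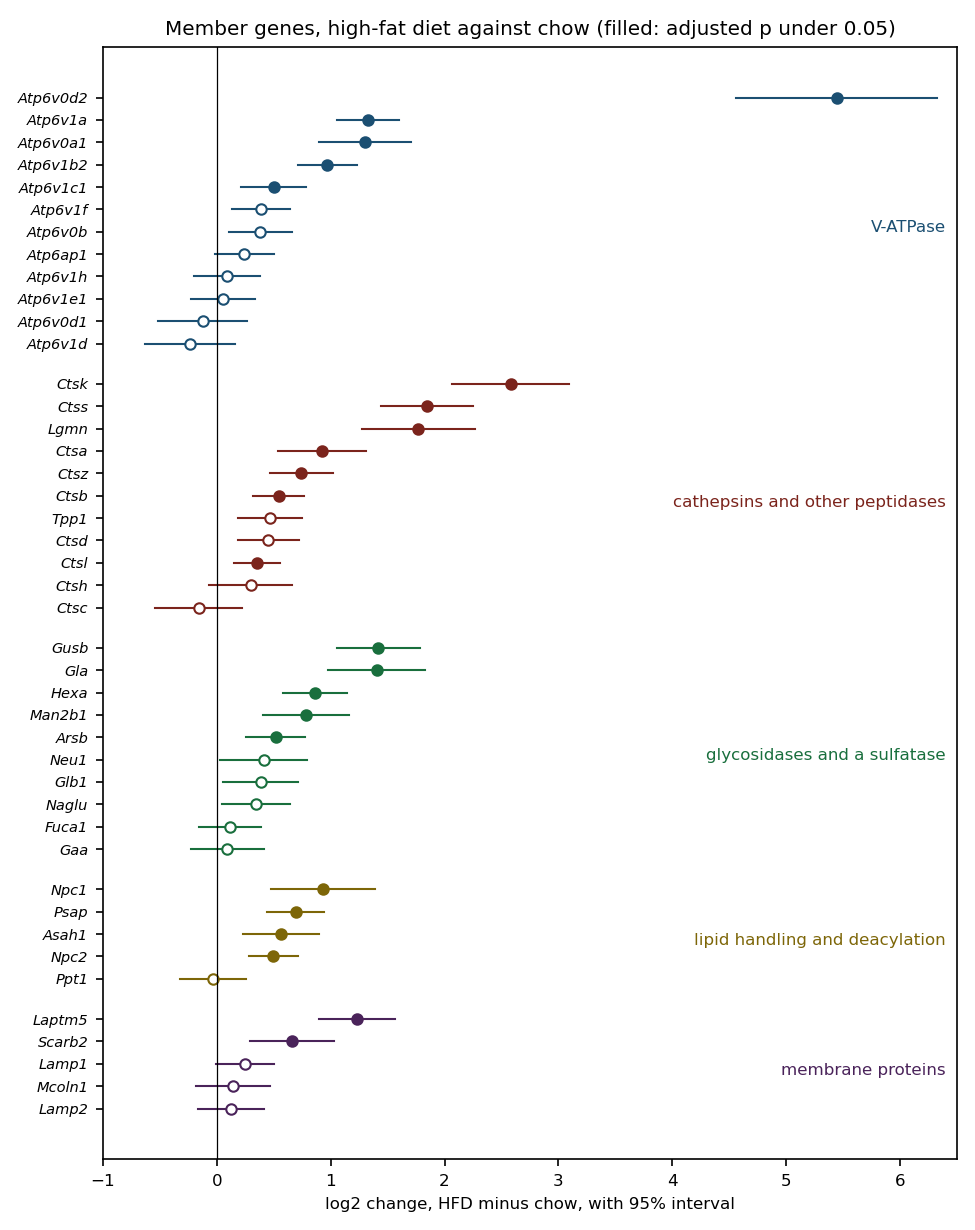
Log2 change of each member gene with HFD relative to chow (horizontal axis; points, estimates from 2 arrays per group; bars, 95% confidence intervals; filled points, adjusted p under 0.05). The 23 filled points all lie to the right of 0, and Atp6v0d2, at 5.44, lies far outside the range of the others.

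Among the V-ATPase genes, the 5 that rose were Atp6v0d2 and Atp6v0a1 of the membrane sector and Atp6v1a, Atp6v1b2 and Atp6v1c1 of the cytosolic sector. Atp6v0d2 encodes the form of subunit d that is known from osteoclasts and some macrophages. Its scaled signal was 40.2 and 76.7 on the chow arrays, 2327 and 2501 with HFD, 1204 and 2643 with telmisartan and 1994 and 2606 with candesartan. Every array of the HFD-fed groups was above 1200, and both chow arrays were under 80. The rise with HFD was 5.44 (95% CI 4.56 to 6.32, adjusted p 0.00052), and its size ranged from 4.98 to 5.91 over the alternative settings. Atp6v0d1, which encodes the widely expressed form of the same subunit, had signals of 3619 and 2717 in chow, 3039 and 2728 with HFD, 3886 and 3001 with telmisartan and 3243 and 3173 with candesartan. Its HFD arrays lay inside the range of the chow arrays (change −0.12, 95% CI −0.51 to 0.27, adjusted p 0.713), and the estimate was 0.08 without chow array 1.

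Atp6v1a, the catalytic subunit that binds ATP, had signals of 1201 and 1202 in chow, 2980 and 3063 with HFD, 2324 and 2510 with telmisartan and 2304 and 2686 with candesartan. Its rise with HFD was 1.33 (95% CI 1.06 to 1.60, adjusted p 0.00105). In the probe set used, the arrays of both drug groups lay between those of chow and HFD and overlapped neither. In another probe set the arrays of both drug groups overlapped those of HFD. For Atp6v0a1, a form of the large membrane subunit a, the signals were 565 and 712 in chow, 1471 and 1672 with HFD, 1140 and 1527 with telmisartan and 1400 and 1387 with candesartan. All 6 arrays of HFD-fed mice were above chow, and it rose with HFD by 1.30 (95% CI 0.90 to 1.71, adjusted p 0.00408). Atp6v1b2, a form of the B subunit that sits beside the catalytic one, went from 1977 and 1727 in chow to 3744 and 3508 with HFD, and was 3551 and 3618 with telmisartan and 3639 and 3888 with candesartan. Here too the chow arrays stood below the rest (rise with HFD 0.97, adjusted p 0.00234). The smaller rise of Atp6v1c1 was 0.50 (adjusted p 0.0476). The other 7 V-ATPase genes, which include the proteolipid gene Atp6v0b and the accessory gene Atp6ap1, were not called and changed by −0.23 (Atp6v1d) to 0.39 (Atp6v1f). By sector, 2 of 4 V0 genes and 3 of 7 V1 genes rose, with medians of 0.84 and 0.39.

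**Figure D2:**
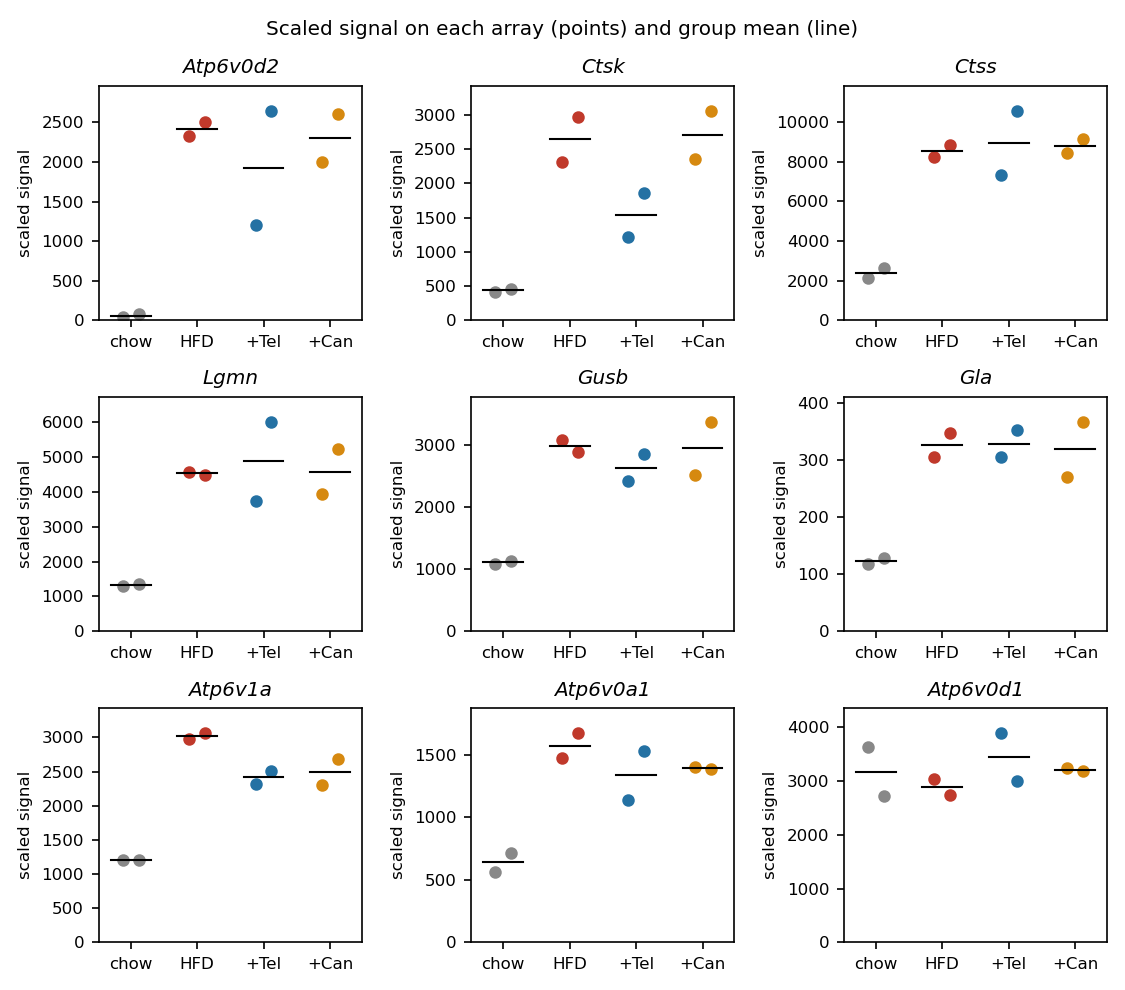
Scaled signal (vertical axis, linear and starting at 0) of single member genes on each of the 8 arrays by group (+Tel and +Can, HFD with telmisartan or candesartan), with each point an array and each line the mean of 2. Atp6v0d2 and Ctsk are near the bottom of their axes in chow and high in the groups fed HFD, while the points of Atp6v0d1 overlap between groups.

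In the probe sets used, the peptidases Ctsk, Ctss and Lgmn had the largest changes of all members after Atp6v0d2, while other probe sets of Gla and Ctsb changed by 2.22 and 2.11. Ctsk encodes cathepsin K, a cysteine protease that cuts collagen and is best known from osteoclasts. Its signals were 420 and 458 in chow, 2320 and 2968 with HFD, 1211 and 1863 with telmisartan and 2351 and 3057 with candesartan. It rose by 2.58 with HFD (95% CI 2.07 to 3.10, adjusted p 0.000883), with the telmisartan arrays between chow and HFD and no overlap with either. Ctss, cathepsin S, trims the invariant chain during antigen presentation. Its signals of 2140 and 2634 in chow compare with 8241 and 8870 with HFD, 7332 and 10560 with telmisartan and 8433 and 9152 with candesartan. The change was 1.85 (95% CI 1.45 to 2.25, adjusted p 0.00106), and the 3 groups fed HFD overlapped.

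Lgmn, the asparaginyl peptidase legumain that activates several cathepsins, had signals of 1290 and 1364 in chow, 4566 and 4478 with HFD, 3741 and 5988 with telmisartan and 3917 and 5217 with candesartan. Its rise was 1.77 (95% CI 1.27 to 2.26, adjusted p 0.00263), and the drug-treated arrays lay on both sides of the HFD arrays. Ctsa, a carboxypeptidase that also protects β-galactosidase and neuraminidase, had 1693 and 1769 in chow, 3168 and 3401 with HFD, 2533 and 3641 with telmisartan and 2934 and 3351 with candesartan. All 6 arrays of HFD-fed mice were above chow (rise 0.92, adjusted p 0.016). Smaller rises passed for the carboxypeptidase Ctsz (0.74) and for the cysteine proteases Ctsb (0.54) and Ctsl (0.35). Ctsd, the main aspartic protease of lysosomes, and Tpp1, which removes tripeptides, missed the threshold narrowly with changes of 0.45 (adjusted p 0.0507) and 0.47 (adjusted p 0.0537). Changes of 0.30 for the aminopeptidase Ctsh and −0.16 for Ctsc, which activates serine proteases of immune cells, were not called.

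Among the enzymes that take apart glycans, Gusb and Gla changed most. Gusb encodes β-glucuronidase. Its signals were 1089 and 1135 in chow, 3066 and 2884 with HFD, 2408 and 2854 with telmisartan and 2516 and 3360 with candesartan, a rise with HFD of 1.42 (95% CI 1.06 to 1.78, adjusted p 0.00182). Gla, the α-galactosidase that is deficient in Fabry disease, had signals of 119 and 128 in chow, 306 and 348 with HFD, 306 and 353 with telmisartan and 272 and 367 with candesartan. It rose by 1.40 with HFD (95% CI 0.98 to 1.83, adjusted p 0.00374). For both genes the chow arrays stood below all 6 others.

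Hexa, a subunit of β-hexosaminidase, had signals of 2718 and 2672 in chow, 4802 and 5023 with HFD, 4408 and 5448 with telmisartan and 4767 and 5018 with candesartan (rise 0.87, adjusted p 0.0051). Man2b1, the lysosomal α-mannosidase, had 1759 and 2003 in chow, 3132 and 3347 with HFD, 2872 and 3989 with telmisartan and 2760 and 3081 with candesartan (rise 0.79, adjusted p 0.0257). In both, chow was below every other array. Arsb, a sulfatase of dermatan sulfate, also rose (0.52, adjusted p 0.0314). The 5 genes not called were Neu1, Glb1, Naglu, Fuca1 and Gaa, with changes of 0.41, 0.38, 0.34, 0.11 and 0.09. Gaa, which degrades glycogen, had chow and HFD arrays that overlapped, as did Fuca1, an α-fucosidase.

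Of the lipid genes, Npc1 and Npc2, which together move cholesterol out of the lysosome, both rose. Npc1 had signals of 164 and 166 in chow, 315 and 315 with HFD, 212 and 324 with telmisartan and 306 and 314 with candesartan, a rise with HFD of 0.93 (95% CI 0.47 to 1.39, adjusted p 0.0285). Telmisartan array 1 lay between chow and the other arrays of HFD-fed mice. Npc2 rose by 0.50 (adjusted p 0.0176), Psap, the precursor of the saposins that help sphingolipid hydrolases, by 0.69 (adjusted p 0.00848), and Asah1, the acid ceramidase, by 0.57 (adjusted p 0.0496). Ppt1, which removes palmitate from proteins, changed by −0.03 (95% CI −0.32 to 0.25, adjusted p 0.903).

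Of the 5 membrane proteins, Laptm5 and Scarb2 rose. Laptm5 encodes a lysosomal protein of blood-derived cells. Its signals were 1149 and 1256 in chow, 2902 and 2727 with HFD, 2450 and 3224 with telmisartan and 2686 and 2714 with candesartan, with no overlap between chow and the rest (rise 1.23, 95% CI 0.90 to 1.56, adjusted p 0.00235). Scarb2, the receptor that carries β-glucocerebrosidase to the lysosome, rose by 0.66 (adjusted p 0.0438). Another probe set of Scarb2 changed by 0.26, and its call was lost with the mean of probe sets. The major coat proteins of the lysosomal membrane, Lamp1 and Lamp2, changed by 0.25 (95% CI −0.01 to 0.50) and 0.13 (95% CI −0.16 to 0.42), and the calcium channel Mcoln1 by 0.14 (95% CI −0.19 to 0.46). None of these 3 was called, and the intervals leave out a change of 2-fold.

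The count of 23 depended on single arrays and on the scaling, while the direction of the called genes did not. It was 15 without chow array 1, 10 without HFD array 1 and 8 without HFD array 2, and it lay between 16 and 26 when any of the other 5 arrays was left out. Atp6v0d2, Ctsk, Ctss, Lgmn, Gusb, Atp6v1a, Atp6v1b2 and Laptm5 were called whichever array was left out. Gla and Atp6v0a1 lost the call only without HFD array 2 among these omissions, and Hexa, Ctsz, Ctsb and Psap without either HFD array. Ctsa, Npc2, Man2b1, Scarb2, Npc1, Asah1, Arsb, Atp6v1c1 and Ctsl lost it without either HFD array and without chow array 1, and all of these but Ctsa, Npc2, Man2b1 and Scarb2 also without chow array 2. Man2b1, Scarb2, Npc1, Asah1, Arsb, Atp6v1c1 and Ctsl also lost it without either candesartan array. With the arrays centred on their medians 11 members rose and with unscaled signals 13, and 0 fell under any scaling tried. The median of all genes was then −0.11 and −0.13, and the members' median exceeded it by 0.51. This gap equals that of the main analysis because these scalings shift all genes of an array nearly alike. With quantile normalization, which gives all arrays the same distribution of signals, the gap was 0.535 and 24 members rose.

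Several members were covered by more than 1 probe set, a group of short probes against one stretch of a transcript. In all, 104 probe sets matched the members, 89 passed the filter, and 29 members had several past it. The brightest was used for each gene. For 6 of the 29 another probe set gave a change of opposite sign or differing by over 1 on the log2 scale. Ctsb ranged from 0.35 to 2.11 over the other probe sets, against 0.54 in the one used, and its dimmer probe set at 2.11 had signals of 552 and 558 in chow and 2405 and 2403 with HFD. Ctsl was at 1.53 in a second, dim probe set, against 0.35, and Npc2 ranged from 0.36 to 1.69, against 0.50. For Atp6v0a1 a dim probe set changed by 0.09 and the others by up to 1.32. A dim probe set of Laptm5 was at −0.85, with signals of 65.9 and 73.0 in chow and 88.1 and 16.9 with HFD, so that the HFD arrays lay on both sides of chow. The second probe sets of Atp6v0d2 and Gla gave changes of 5.04 and 2.22. The sizes given for Ctsb, Ctsl, Npc2, Atp6v0a1 and Laptm5 therefore depend on the probe set, as does that of Scarb2 (0.26 in another probe set, against 0.66). With the mean of probe sets 5 of the 23 members lost their call, Laptm5 and Scarb2 among them.

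**Figure D3:**
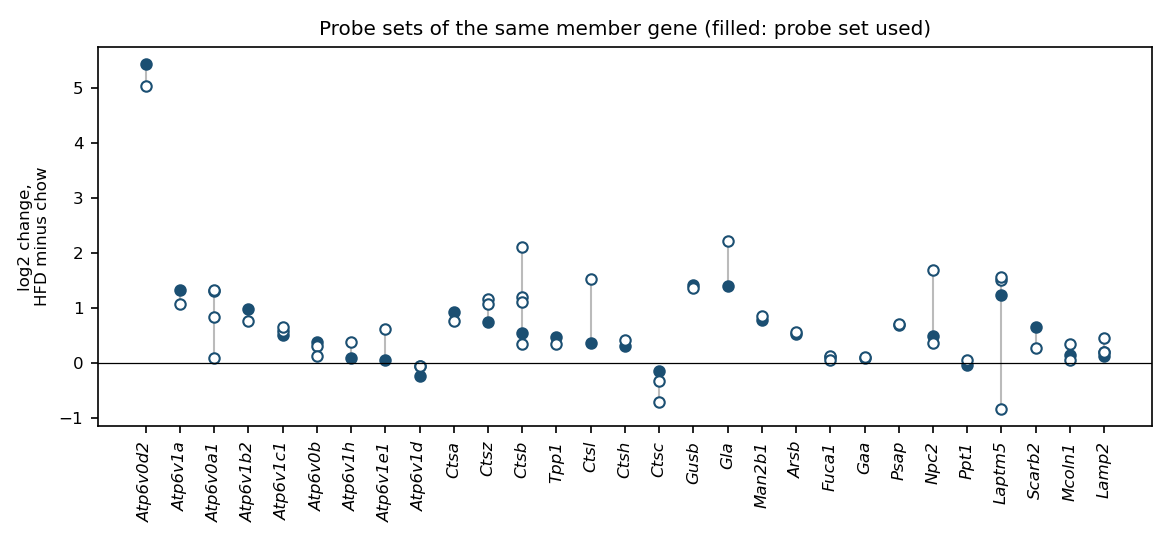
Log2 change with HFD relative to chow (vertical axis) for each probe set past the filter of the members with several (horizontal axis; filled points, the probe set used; open points, the others). The filled points of Ctsb, Ctsl and Npc2 are lower than their highest open points, by more than 1 on the log2 scale.

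The other genes of the pathway were read from 3 further lists. Of 37 further lysosomal genes tested, 8 rose (21.6%) and 1 fell, against 5.15% and 2.95% of all genes. Their median change was 0.28, and 20 (54.1%, against 24.1% of all genes) had an unadjusted p under 0.05. The 3 with the smallest p were Gpnmb, a glycoprotein of lipid-laden macrophages, Cd68, a macrophage lysosomal membrane protein that is also among the macrophage markers, and Lipa, the acid lipase that splits cholesteryl esters and triglycerides. Gpnmb had signals of 140 and 298 in chow and 6483 and 7776 with HFD (rise 5.12, 95% CI 4.38 to 5.86, adjusted p 0.000402). Cd68 had 1106 and 1089 in chow and 5401 and 5840 with HFD (rise 2.36, adjusted p 0.000728). Lipa had 883 and 846 in chow and 3507 and 3626 with HFD (rise 2.04, adjusted p 0.00134). The arrays of both groups stood apart in all 3. The gene that fell, named after its value was seen, was Dnase2a, listed as a lysosomal nuclease (630 and 772 in chow, 386 and 301 with HFD, change −1.03, adjusted p 0.0104). Atp6v0e2, a small V-ATPase subunit of the same list, also named after its value was seen, had the lowest estimate of the list. Its signals were 1398 and 1334 in chow, 508 and 518 with HFD, 898 and 305 with telmisartan and 638 and 382 with candesartan, with every array of HFD-fed mice below chow (change −1.41, 95% CI −2.40 to −0.42), and it did not pass (adjusted p 0.0864).

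Of 20 inhibitors and regulators of lysosomal function, 3 rose (15%, against 5.15% of all genes) and 0 fell, with a median of 0.09. They were Cstb, a cytosolic inhibitor of cysteine cathepsins (5303 and 4653 in chow, 9570 and 9655 with HFD, rise 0.95, adjusted p 0.00291), Igf2r, the receptor that sorts hydrolases by their mannose 6-phosphate tag (566 and 516 in chow, 911 and 1245 with HFD, rise 0.98, adjusted p 0.0137), and Mitf, a transcription factor of the TFEB family. The signals of Mitf were 209 and 322 in chow and 644 and 745 with HFD, a rise of 1.42 (adjusted p 0.0294). Without HFD array 2 the calls of Igf2r and Mitf were lost. Igf2r also lost its call without chow array 2, and Mitf without chow array 1, HFD array 1 or either candesartan array. Of 19 autophagy genes, 0 were called by limma and 4 (21.1%, against the 24.1% of all genes) had an unadjusted p under 0.05, with a median of 0.06. The smallest p in that list belonged to Sqstm1, an autophagy receptor that binds ubiquitin (change 0.39, adjusted p 0.0658), Rab7, the GTPase of late endosomes (0.38, adjusted p 0.0794), and Atg12, a ubiquitin-like conjugate of autophagosome formation (0.39, adjusted p 0.163).

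Markers of macrophages and of other immune cells were read beside the members. With HFD, 5.15% of all genes rose and 2.95% fell. Of 10 macrophage markers, 9 rose with HFD, and the summed signal of the 10 was 16621 and 18641 on the chow arrays, 34877 and 36116 with HFD, 30379 and 41451 with telmisartan and 32543 and 37494 with candesartan. Emilin2, the marker that did not rise, changed by −0.88 (adjusted p 0.0583). Relative to chow, the median macrophage marker was at 1.60 and 1.62 on the HFD arrays, where the median member was at 0.44 and 0.55. With telmisartan the markers were at 1.20 and 1.98 and the members at 0.47 and 0.58, and with candesartan the markers were at 1.28 and 1.75 and the members at 0.44 and 0.56, with the lower values on array 1 in both groups and both lists. The 3 B cell markers had a median change with HFD of 1.59 with 0 called, and their summed signal was 133 and 164 in chow and 624 and 310 with HFD. Of 5 mast cell markers 1 rose, with a median of 1.01, and of 4 T and NK cell markers 0 were called, with a median of 0.69. Of 4 fibroblast markers 1 rose, with a median of 0.32, and of 4 mesothelial markers 0 were called, with a median of −0.07. The part of these cell types in the rise of the members was not tested.

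**Figure D4:**
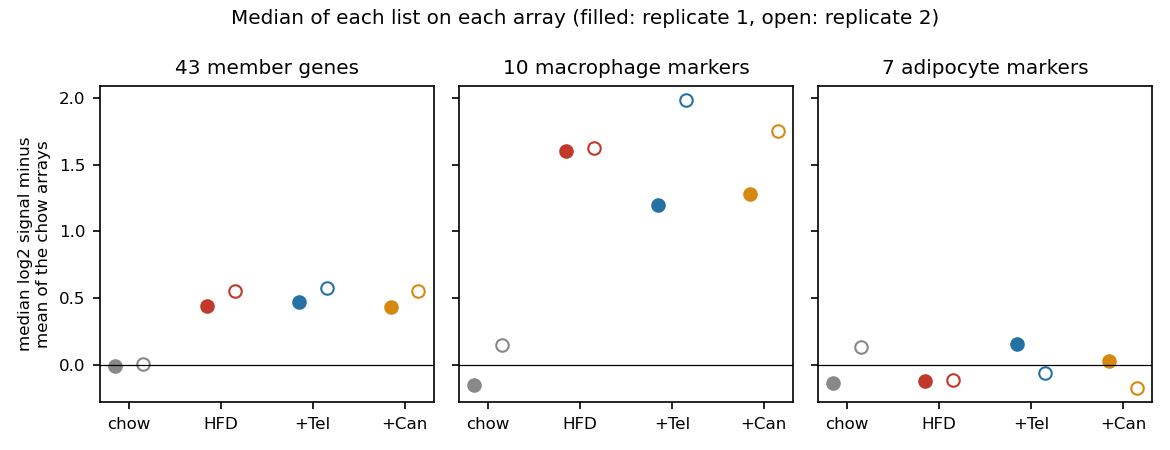
Median log2 signal of the members and of the macrophage and adipocyte markers on each array, relative to the mean of the chow arrays (vertical axis, log2; filled points, replicate 1; open points, replicate 2). On the HFD arrays the members sit at 0.44 and 0.55 and the 10 macrophage markers at 1.60 and 1.62.

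Because Atp6v0d2 and Ctsk are known from osteoclasts, markers of that cell were read as well. Of 7, Calcr, Ocstamp and Oscar were too dim to test, Calcr with 6 of 8 arrays at the floor. Dcstamp, a membrane protein needed for cell fusion, rose at low signals (14.5 ± 7.79 in chow, 102 ± 21.1 with HFD, SD, n = 2 each, rise 2.91, adjusted p 0.00481), while Mmp9 (change −1.61, adjusted p 0.078), Acp5 (−0.41, adjusted p 0.168) and Nfatc1 (−0.04, adjusted p 0.885) were not called. The chow signals of Dcstamp lay below the filter on dim genes, which it passed only through the groups fed HFD. Its call is therefore a description and not independent evidence. For Mmp9 and Acp5 both HFD arrays lay below both chow arrays. The summed signal of the 7, of which Acp5 makes up the most (3110 and 3863 in chow, 2628 and 2598 with HFD), was 3633 and 4477 in chow and 3159 and 3229 with HFD. Of 7 adipocyte markers 0 rose and 1 fell, with a summed signal of 67181 and 77932 in chow and 68194 and 72025 with HFD. Of 6 endothelial markers 4 fell, against 2.95% of all genes. The sum of the 6 went from 5827 and 4576 in chow to 3319 and 3173 with HFD.

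Telmisartan on HFD was compared with HFD alone, to ask whether the drug moved these genes back. limma called 0 of the 43 members (0% of all genes). At an unadjusted p under 0.05 there were 3 members, 7.0% of them, against 6.2% of all genes, and the arrays of both groups did not overlap for 11 members, 25.6%, against 37.9% of all genes. The median change of the members was 0.01, and its sign depended on the scaling: 40 of 43 members were higher with arrays centred on their medians and 39 lower with unscaled signals, where the median of all genes was 0.26 and −0.24. These scalings shift all genes of an array nearly alike, so the members' median exceeded that of all genes by 0.02 under each. With quantile normalization the members' median lay below that of all genes (difference −0.1), with 12 members higher and 31 lower. For 41 of 43 members the 95% interval left out a change of 2-fold in either direction, and the exceptions were Atp6v0d2 and Ctsk.

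Ctsk had the smallest p of the members. Its telmisartan arrays (1211 and 1863) were both below the HFD arrays (2320 and 2968), a change of −0.80 (95% CI −1.32 to −0.29, unadjusted p 0.00663, adjusted p 0.766) that did not pass. Over the alternative settings the estimate ran from −1.12 (without telmisartan array 2) to −0.49 (without telmisartan array 1), with 0.0783 as the lowest adjusted p. Ctsh had signals of 1927 and 1636 in chow, 2353 and 2028 with HFD, 2746 and 3419 with telmisartan and 2140 and 2512 with candesartan. Its telmisartan arrays were above the other 6 in the probe set used (change from HFD 0.49, unadjusted p 0.0146, adjusted p 0.766). In another probe set of Ctsh telmisartan array 1 (1469.3) lay below candesartan array 2 (1499.5), and the change from HFD was 0.34. Atp6v1a, with the values given above, was lower by 0.32 (unadjusted p 0.026, adjusted p 0.766). Its change was −0.11 in another probe set, where the arrays of the groups overlapped.

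Ctsc had signals of 4253 and 3857 in chow, 4107 and 3204 with HFD, 4045 and 5372 with telmisartan and 3481 and 3600 with candesartan. Its telmisartan and HFD arrays overlapped (change 0.36, unadjusted p 0.0599, adjusted p 0.766). Atp6v1d, a stalk subunit of V1, had 1308 and 1006 in chow, 1100 and 865 with HFD, 1301 and 1167 with telmisartan and 1149 and 1234 with candesartan. In the probe set used, both drug groups lay above HFD and inside the range of chow (telmisartan change 0.34, unadjusted p 0.0852, adjusted p 0.766). In another probe set of Atp6v1d both telmisartan arrays (1117 and 1162) and candesartan array 2 (1065) were above chow (1027 and 846). In a further probe set telmisartan array 1 (1063) and candesartan array 2 (1062) were above chow (1051 and 943). Atp6v0d2 changed by −0.44 (95% CI −1.32 to 0.44), and its arrays in the telmisartan group, at 1204 and 2643, lay on both sides of the HFD arrays.

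Estimates of some marker lists lay mostly below 0 in the same comparison, though their summed signals overlapped between telmisartan and HFD arrays. The 5 mast cell markers had a median of −0.96, with 3 at an unadjusted p under 0.05 (60%, against 6.2% of all genes). Their summed signals were 474 and 1020 with telmisartan, 963 and 1638 with HFD and 1120 and 1185 with candesartan. All 4 mesothelial markers had estimates below 0 (median −0.94), with sums of 440 and 1711 with telmisartan, 1684 and 2237 with HFD and 1205 and 2244 with candesartan, so that telmisartan array 1 was the lowest of all. The 4 fibroblast markers had a median of −0.25 and ran from −0.95 to 0.12, with 1 at an unadjusted p under 0.05. That marker was Pdgfra, the lowest of the list (change −0.95, unadjusted p 0.000887, adjusted p 0.766). The 10 macrophage markers had a median of −0.05. None of these markers was called, and their part in the values of the members was not tested.

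Candesartan on HFD gave 0 calls among the members by limma (0% of all genes). At an unadjusted p under 0.05 there was 1 member, 2.3% of them, against 1.25% of all genes, and 12 members did not overlap between the groups, 27.9% against 33.4% of all genes. The intervals of all 43 members left out a change of 2-fold in either direction. Their median change was −0.01. With the arrays centred on their medians it was 0.15, where the median of all genes was 0.16. The members' median lay 0.01 below that of all genes under both scalings, which shift all genes of an array nearly alike. With quantile normalization the difference was −0.05, with 13 members higher and 30 lower. The member with the smallest p was again Atp6v1a, lower by 0.28 (unadjusted p 0.0461, adjusted p 1). In the probe set used, its arrays with either drug were all below those of HFD, and both drug comparisons share the HFD arrays. Another probe set of Atp6v1a had 1908 and 1850 with HFD, 1422 and 2122 with telmisartan and 1901 and 2250 with candesartan. There the arrays overlapped, and the change with candesartan was 0.14, of opposite sign.

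The next smallest p-values with candesartan belonged to Atp6v1d (change 0.29), Glb1, Tpp1 and Atp6v0a1. Glb1, β-galactosidase, had signals of 593 and 517 in chow, 725 and 721 with HFD, 638 and 759 with telmisartan and 805 and 849 with candesartan, so that its candesartan arrays were the highest (change from HFD 0.19, unadjusted p 0.21, adjusted p 1). Tpp1 had 3066 and 3104 in chow, 4079 and 4466 with HFD, 3692 and 4331 with telmisartan and 3653 and 4108 with candesartan. Its candesartan and HFD arrays overlapped (change −0.14, adjusted p 1), and the sign turned with arrays centred on their medians (0.01). Both candesartan arrays of Atp6v0a1, 1400 and 1387, were below HFD (change −0.17, adjusted p 1).

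**Figure D5:**
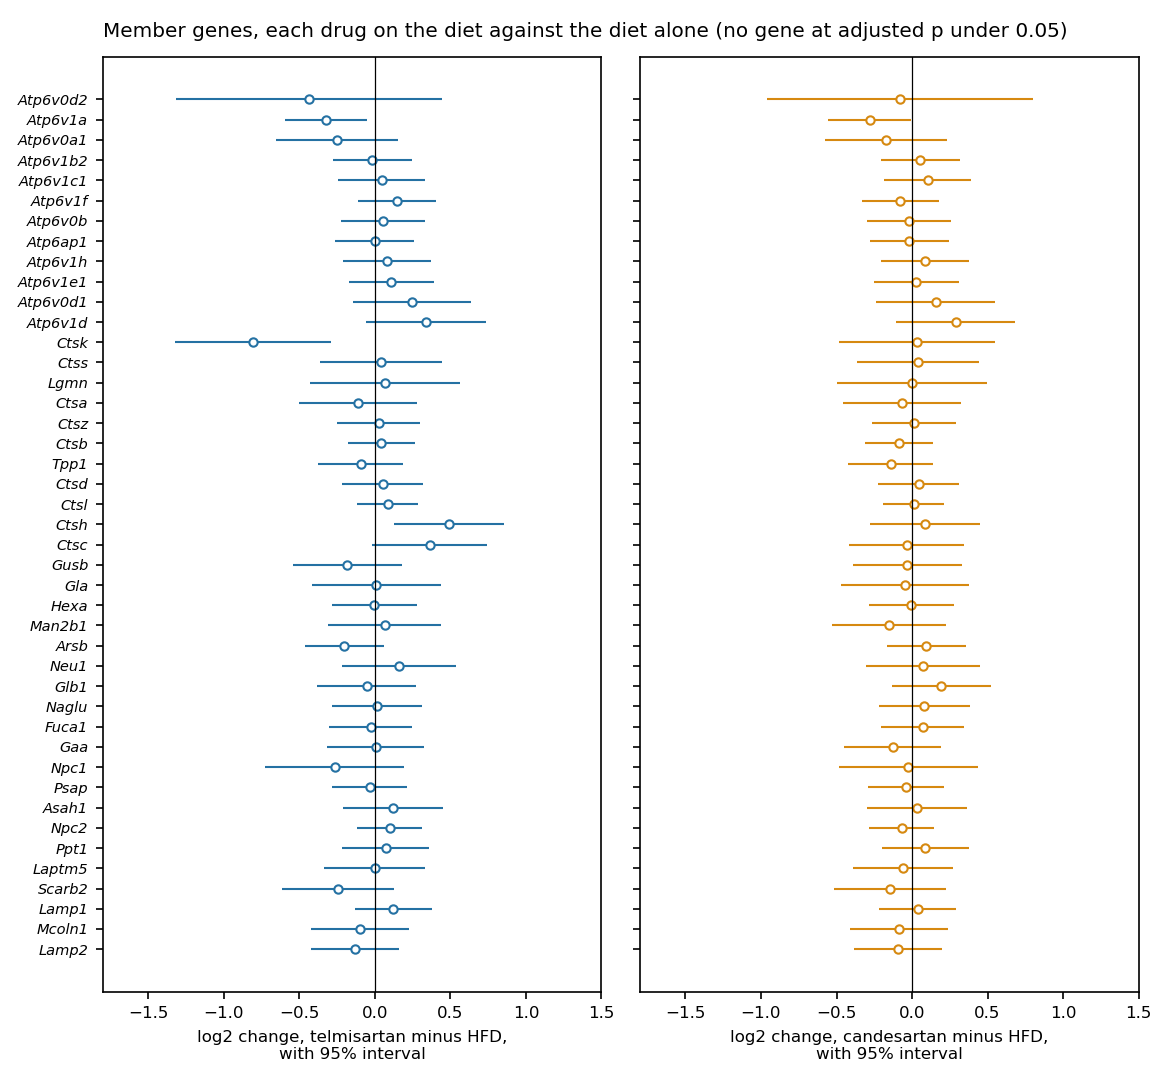
Log2 change of each member gene with telmisartan and with candesartan relative to HFD alone (points, estimates from 2 arrays per group; bars, 95% confidence intervals), with 0 genes at an adjusted p under 0.05. Ctsk, at −0.80 with telmisartan and 0.03 with candesartan, is the point farthest from 0 in the telmisartan panel.

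Telmisartan and candesartan, both angiotensin receptor blockers with a biphenyl core, which carries a carboxylic acid in telmisartan and a tetrazole in candesartan, were given at equal doses for equal times. They were compared directly, which also tests the difference between their effects on HFD. limma called 0 members (0% of all genes), with 4 members, 9.3%, at an unadjusted p under 0.05 against 4.9% of all genes. For 12 members, 27.9%, the arrays of the drugs did not overlap, against 32.2% of all genes. Ctsk was lower with telmisartan by 0.84 (95% CI −1.35 to −0.32, unadjusted p 0.00539, adjusted p 0.924), with both telmisartan arrays below both candesartan arrays. Arsb had signals of 1190 and 1200 in chow, 1651 and 1768 with HFD, 1517 and 1454 with telmisartan and 1891 and 1759 with candesartan. Its telmisartan arrays were below those of candesartan (difference −0.30, unadjusted p 0.0306, adjusted p 0.924), and for Ctsh they were above (difference 0.40, unadjusted p 0.0343, adjusted p 0.924). In another probe set of Ctsh the arrays of the drugs overlapped (difference 0.35). For 41 of 43 members the interval of the difference between the drugs stayed within 2-fold, the exceptions again being Atp6v0d2 and Ctsk, so that differences of 2-fold in these genes remain possible at this number of mice. The median difference of the members was 0.01. With unscaled signals it was −0.25, where the median of all genes was −0.26. The members' median exceeded that of all genes by 0.01 under both scalings, which shift all genes of an array nearly alike. With quantile normalization the members' median lay below that of all genes (difference −0.06), with 15 members higher and 28 lower.

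Set against chow, each drug group gave the same number of calls as HFD alone. With telmisartan 23 of 43 members rose and 0 fell, against 4.96% and 3.48% of all genes, and the median change was 0.55. With candesartan 23 rose and 0 fell, against 4.48% and 2.11% of all genes, with a median of 0.50. Atp6v0d2 rose by 5.01 with telmisartan and by 5.36 with candesartan, Ctsk by 1.78 and 2.61, Ctss by 1.89 and 1.89, and Lgmn by 1.83 and 1.77. Ctsh passed against chow with telmisartan (0.79, adjusted p 0.0211) and had 0.38 with candesartan (adjusted p 0.211). Npc1 had 0.67 with telmisartan (adjusted p 0.079) and rose by 0.91 with candesartan (adjusted p 0.0339). These comparisons share the chow arrays with that of HFD. Over all genes the share of calls that were higher depended on the scaling: with telmisartan it was 58.8%, against 88.5% with arrays centred on their medians and 15.9% with unscaled signals, and with candesartan 68%, against 85.5% with arrays centred on their medians. Among the members 0 fell under any of these scalings. The telmisartan count was 9 with unscaled signals and between 17 and 26 when an array was left out. The candesartan count was 14 without chow array 1, 13 without chow array 2 or either HFD array, 10 when candesartan array 1 was left out and 7 when array 2 was.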

How the data were processed

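RNA of 8 fat pads was hybridized to 1-colour Affymetrix Mouse Genome arrays with 45101 probe sets. The deposited values are linear signal intensities that the authors made with the GeneChip Analysis Suite software, per the labels. Its version, the summary algorithm and any scaling are not given in the labels used here. Groups came from the sample titles.

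Each array was scaled to a common 2%-trimmed mean (the means differed by up to 1.48 times). Signals below a floor of 6.69, the 20th percentile over all arrays, were raised to it before taking log2. The brighter probe sets, from the 50th percentile of mean log2 signal upward, entered the tests, and for each gene the brightest probe set with 1 symbol was used (11232 genes). limma 3.58.1 in R 4.3.3 fitted 4 group means with an intensity trend and 4 residual degrees of freedom. Tests were two-sided, 6 comparisons were made, and a gene was called where its p, adjusted over all genes by Benjamini-Hochberg, was under 0.05. The steps were tested on simulated data. An exact permutation test of 2 arrays against 2 cannot go below p = 0.333.

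The members and lists were chosen with earlier results of these data known. Every array is given for Atp6v0d2 and Atp6v0d1, for the 14 members with the largest called change with HFD, and for those with the smallest p in each drug comparison (5 against HFD, 3 between drugs). For related lists, the 3 genes with the smallest p are named. Alternatives varied the scaling, floor, filter, variance model, groups fitted, replicate block, probe sets and arrays. Replicate numbers name mice, and the labels do not pair them across groups. Log2 differences between replicates correlated between groups at −0.04 to 0.21, which cannot settle whether mice were paired.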

Additional observations from a re-analysis of the deposited data

How the results depend on the processing

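The members called with HFD against chow numbered 23. They were 11 with arrays centred on their medians, 13 with unscaled signals, 9 with no filter, where more genes were tested, and 15 with no intensity trend, and ran from 8 to 26 when an array was left out. With telmisartan against chow the 23 became 9 with unscaled signals, 10 with no filter and 9 with only the 2 groups fitted, and ran from 17 to 26. With candesartan against chow they were 13 with median centring, 13 with unscaled signals, 8 with no filter and 13 with no intensity trend, and ran from 7 to 25. The causes of these differences were not tested. The comparisons of each drug with HFD and between drugs gave 0 calls among the members in all settings. In the 23 called with HFD, 0 estimates changed sign, and 5 genes (Atp6v0d2, Ctsk, Ctss, Gusb and Atp6v1a) were called in all 20 alternatives. Single genes were followed for all members with HFD and for the named members in the drug comparisons. Among these, signs turned in genes that were not called, namely, with HFD, Atp6v0d1 (0.084 without chow array 1, range −0.33 to 0.084 with an array left out), Atp6v1h (−0.00798 with median centring, −0.030 unscaled), Fuca1 (−0.0076 unscaled, −0.0040 without chow array 1, range −0.0040 to 0.23), Ctsc (0.020 without HFD array 2, range −0.34 to 0.020), Ppt1 (0.0064 with the mean of probe sets), Lamp2 (−0.026 without HFD array 1, range −0.026 to 0.28), Gaa (−0.00667 with median centring, −0.028 unscaled) and Atp6v1e1 (−0.041 with median centring, −0.063 unscaled), and Tpp1 with candesartan (0.012 with median centring). The cause was not tested. Over all members, the number above 0 followed the scaling in the drug comparisons: with telmisartan against HFD it was 24, against 40 with median centring and 4 unscaled, with candesartan 20, against 41 and 25, and between the drugs 25, against 37 and 2. With quantile normalization these numbers were 12, 13 and 15.

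With the replicate number as a block, the members called were 25 with HFD against chow, 24 with telmisartan against chow and 25 with candesartan against chow, and 0 in the other comparisons. The labels do not pair the mice across groups. A comparison of the proteins of Atp6v0d1 and Atp6v0d2 that had been planned was not run. With 2 mice per group, the 95% intervals of the members had log2 half-widths of 0.20 to 0.88, with a median of 0.30.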
